A study of Mus musculus with 155 samples.

Results

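This report describes mouse embryonic stem cells (ESCs) that expressed the K27M mutant of histone H3.3 for 24 or 72 h, compared with the same kind of cells expressing WT-H3.3 for the same times. The 8 RNA-seq libraries were chosen by their labels and are 8 of the 32 ESC RNA-seq libraries, in a series of 155 samples. There were 2 libraries for each line and time, so 4 stood on each side. KH2 ESCs carried 1 doxycycline (Dox)-inducible copy of SNAP-HA-tagged H3.3, WT or K27M, and all 8 libraries came from cells given Dox, grown with leukaemia inhibitory factor and inhibitors of MEK and GSK3. Each line was made by selecting colonies after transfection, so a difference between clones and a difference made by the mutation cannot be told apart. All clones were thought to carry an extra copy of chromosome 8. Genes annotated on that chromosome were left out of the CPM, fold changes and tests here, unless stated. The counts per library include them, and genes without an annotated position were kept.

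H3.3 is the histone H3 variant that is put into chromatin independently of DNA replication, at active genes and at enhancers. Replacing its lysine 27 with methionine, the change found in diffuse midline glioma, leaves a histone that cannot be methylated there and that inhibits PRC2, the Polycomb complex that methylates lysine 27 and keeps developmental genes silent. The gene programs that return below are each known for a regulator. Hypoxia-inducible factors are marked for destruction by prolyl hydroxylases when oxygen is present, and otherwise switch on glycolytic enzymes, angiogenic ligands and their own inhibitors. The integrated stress response runs through phosphorylated eIF2 and the factor ATF4, which switches on amino acid synthesis, transfer RNA charging and a set of stress genes. A small share of ESCs in culture passes through a state with transcripts of the two-cell embryo, among them the Zscan4 family.

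The 4 WT libraries held 8245552 to 14894977 counts and the 4 K27M libraries 6680813 to 8678776, and at 72 h both K27M libraries were the shallower ones. Summed ESC markers (Pou5f1, Sox2, Nanog, Esrrb, Klf4 and Tfcp2l1) stood at 4152 to 4990 CPM (read counts scaled to the size of the library) in the WT libraries and at 4054 to 4839 CPM in the K27M libraries. Markers of fibroblasts summed to 12.5 to 20.3 CPM in WT and 10.03 to 21.1 CPM in K27M, those of extraembryonic endoderm to 8.15 to 13.2 and 5.27 to 17.3 CPM, those of trophoblast to 22.5 to 48.5 and 13.6 to 43.7 CPM, the neural markers with a value, Nes and Pax6, to 48.8 to 103 and 59.1 to 88.3 CPM, and those of mesoderm to 4.04 to 6.02 and 2.44 to 6.72 CPM. These ranges overlapped for every type. The neural sum is nearly all Nes, at 46.6 to 99.9 CPM in WT, and 3 of its 5 markers (Sox1, Tubb3 and Dcx) had no value here. Of the defining markers, Postn and Dcn were at 0 in 6 of the 8 libraries, and Hand1 and Mesp1 in 5. The H3.3 genes are counted without a way to tell the transgene from the cell's own copies. H3f3a was at 198, 113, 84.5 and 69.4 CPM in WT and at 124, 102, 102 and 70.4 CPM in K27M (log2 fold change −0.14 ± 0.15, adjusted p = 0.772). H3f3b was at 745, 580, 547 and 631 CPM in WT and at 608, 483, 501 and 806 CPM in K27M (−0.07 ± 0.18, adjusted p = 0.921). For both genes the groups overlapped. Here and below, 4 values are given in the order 24 h replicate 1, 24 h replicate 2, 72 h replicate 1, 72 h replicate 2, a log2 fold change is K27M minus WT with its standard error, and n = 4 libraries a side.

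Libraries of one replicate number and Dox time moved together. The difference between replicates 2 and 1 in WT correlated across genes with that in K27M (Pearson r = 0.465 at 24 h and 0.527 at 72 h over 12409 genes, which are not independent replicates). The 24 h replicate 2 pair stood apart from the other pairs: the SD of its log2 differences between K27M and WT was 0.386 over 7003 genes, against 0.284, 0.207 and 0.239 in the others. List counts that changed without it are given both ways. The model with replicate number and Dox time (called the replicate model) called 1 of 12409 genes at adjusted p under 0.05 and over 2-fold, 0.00806% of those tested, and 1125 genes had an unadjusted p under 0.05, of which 537 were higher (4.33%) and 588 lower (4.74%). Treating each pair of libraries as its own block (the pair model) gave 35 such calls (0.282%) and 114 genes past the adjusted threshold alone, 59 higher (0.475%) and 55 lower (0.443%). A gene is said to have risen or fallen below only where it passed the adjusted threshold in 1 of these models. The log2 fold changes and standard errors are those of the replicate model, also where an adjusted p of the pair model follows. Contrasts with other groups or Dox times have their own. Each standard error is the size of the log2 fold change over the square root of the test's F value. In bulk RNA, fewer cells that express a gene and less of its RNA per cell cannot be told apart.

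The gene called by the replicate model was A2m, which encodes the protease inhibitor alpha-2-macroglobulin (mm9 chr6:121586191-121629255). A2m was at 15.4, 20.5, 22.2 and 32.2 CPM in WT and at 31.3, 48.6, 55.5 and 61.3 CPM in K27M. Each K27M library lay above its WT partner, and 3 of the 4 lay above every WT library. The log2 fold change was 1.13 ± 0.12 (adjusted p = 0.0471 in the replicate model and 0.00108 in the pair model). Leaving out K27M 72 h replicate 2 kept this call, and each of the other 7 omissions ended it, with adjusted p of 0.121 to 0.606.

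Genes that the study names, predicted symbols (Gm number, Rik or accession) and genes without a symbol were left out of the ranking. Of the rest, the 12 of lowest p that were higher in all 4 pairs are called the higher ranked genes. They were Pfkp, Aldh18a1, Loxl2, Capn5, Hk1, Ndrg1, Tmem181a, Nid1, Ccng2, Tcfap2c, Pck2 and Kit. Their log2 fold changes ran from 0.47 to 1.52, with adjusted p of 0.192 to 0.292 in the replicate model and 0.00697 to 0.0230 in the pair model, so all 12 rose in the latter only. The lower ones were Ptgs2, H2-Eb1, Gja1, Zscan4d, Etv4, Ubd, Dido1, Arhgdib, Bmi1, Tex19.1, Lgals3 and Pramel6, from −0.55 to −1.78, with adjusted p of 0.231 to 0.292 and, in the pair model, 0.00927 to 0.0393. The 4 K27M libraries lay above all 4 WT libraries for 7 of the 12 higher genes and below them for 6 of the 12 lower genes, where 1.68% and 1.31% of all tested genes do so. The rule that ranked the genes used these same libraries, so these counts describe the choice. Gm13145 (−0.71 ± 0.13) and Gm13212 (−0.71 ± 0.14), which the rule left out, had a lower p than Bmi1 and were lower in each pair. Both lie in a stretch of chromosome 4 described below. Among the ranked genes, Loxl2 and Ptgs2 were over the low-count filter's minimum of 1.245 CPM in all 4 libraries only in the group where they are high.

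**Figure D1:**
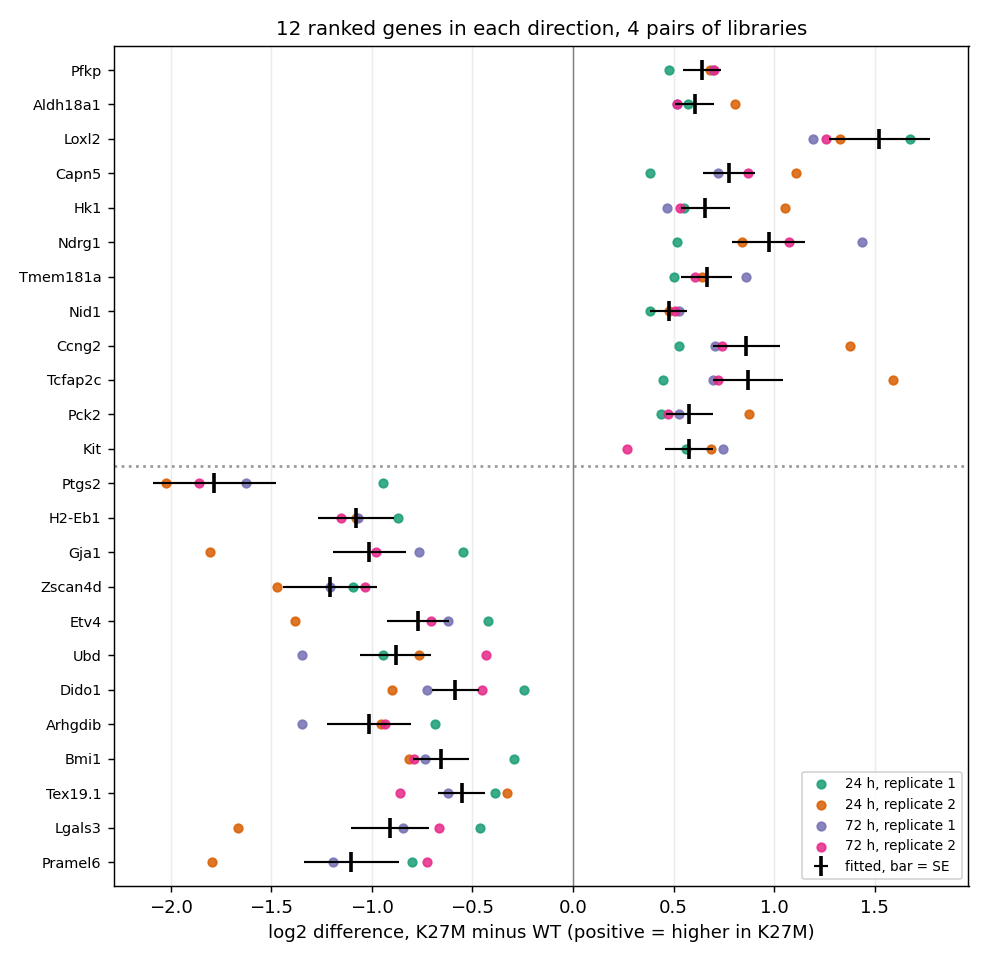
Log2 fold change (K27M minus WT, 24 and 72 h together, points with standard error) of the 12 highest and 12 lowest ranked genes, with the 4 pair differences beside each. The higher genes run from 0.47 (Nid1) to 1.52 (Loxl2) and the lower ones from −0.55 to −1.78 (Ptgs2), and every pair difference lies on its gene's side of 0.

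All gene lists here and below were written with earlier results of these data known, so their counts describe the choice in part. Glycolysis, which splits glucose into pyruvate, was read from glucose uptake to lactate. Of its 26 tested members 13 were higher and 1 lower at unadjusted p under 0.05, with a median log2 fold change of 0.36 beside −0.0001 for all genes tested, and 6 rose in the pair model while none fell. Without the 24 h replicate 2 pair 14 were higher and 1 lower, with a median of 0.29. Pfkp, the platelet-type phosphofructokinase that commits sugar to glycolysis (mm9 chr13:6579014-6648023), was at 214, 302, 313 and 440 CPM in WT and at 298, 484, 506 and 715 CPM in K27M. It was higher in every pair, and 3 K27M libraries lay above all WT ones (0.64 ± 0.09, adjusted p = 0.192 and 0.00697 in the pair model). Hk1, the hexokinase that traps glucose in the cell (chr10:61731603-61842656), was at 80.6, 99.6, 80.4 and 100 CPM in WT and at 118, 207, 111 and 145 CPM in K27M. The groups did not overlap for Hk1 (0.66 ± 0.12, adjusted p = 0.26 and 0.0114 in the pair model).

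The other glycolytic members that rose in the pair model were Gpi1 (glucose-6-phosphate isomerase, 0.43 ± 0.10), Tpi1 (triosephosphate isomerase, 0.41 ± 0.10), Pfkl (liver-type phosphofructokinase, 0.49 ± 0.15) and the glucose transporter gene Slc2a1 (0.45 ± 0.12), with adjusted p of 0.0395, 0.0462, 0.0212 and 0.0292. Gpi1 did not overlap between groups, at 427 to 507 CPM in WT and 522 to 762 CPM in K27M. Aldoa, whose aldolase splits the 6-carbon sugar, had 0.39 ± 0.11 with all 4 K27M libraries above the WT ones, and an adjusted p of 0.0693 in the pair model. Further along the pathway Pgk1 (phosphoglycerate kinase) had 0.37 ± 0.10 and Ldha (lactate dehydrogenase) 0.23 ± 0.11, and neither passed. Eno3, a muscle enolase, was the member on the lower side (−0.31). Pdk1, which keeps pyruvate out of mitochondria and is a known hypoxia target, stood at 0.01 ± 0.15. Of 42 tested members of oxidative phosphorylation, 0 were higher and 2 lower at unadjusted p under 0.05 (Atp5g1 −0.29 ± 0.11 and Sdhd −0.27 ± 0.12), with a median of −0.08.

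Among glycogen genes, only Pgm1, which the study labels, and Ppp1r3c, which was tested because of K27M, rose in the pair model. Of 16 tested, 6 were higher at unadjusted p under 0.05 and 0 lower, with a median of 0.17, and 2 rose in the pair model. Without the 24 h replicate 2 pair 5 were higher and 0 lower, and the median was 0.08. For 2 of the 16, Ppp1r3c and Pygl, the 4 K27M libraries and not all 4 WT libraries were over the 1.245 CPM minimum set by the filter on low counts, and for 0 the reverse, so these members were tested because of the group where they are high. Pgm1, phosphoglucomutase, which moves the phosphate between the positions used for glycogen and for glycolysis, was at 13.3, 20.1, 17.4 and 20.5 CPM in WT and at 23.8, 65.8, 35.7 and 40.1 CPM in K27M. Every K27M library lay above every WT library (1.17 ± 0.21, adjusted p = 0.231 and 0.00435 in the pair model). Ppp1r3c, which brings a phosphatase to glycogen, also rose in the pair model, at 0.379 to 1.85 CPM in WT and 2.18 to 4.04 CPM in K27M (1.50 ± 0.44, adjusted p = 0.0462). Pygl, the liver glycogen phosphorylase, stood at 0.253 to 0.892 CPM in WT and at 2.04, 8.42, 1.56 and 1.35 CPM in K27M (2.09 ± 0.62, adjusted p = 0.0612 in the pair model), with its highest value in K27M 24 h replicate 2.

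Hypoxia genes were described in 2 lists, the regulators inside the cell and the secreted or surface proteins. Each list holds genes that the study labels and that rose in the pair model. These were Ddit4 and Egln3 among the regulators, and Vegfa and Ndufa4l2 among the others. Of 23 tested regulators 8 were higher and 1 lower at unadjusted p under 0.05, with a median of 0.21, and 6 rose in the pair model. Of 14 secreted and surface proteins 6 were higher and 0 lower, with a median of 0.42, and 4 rose. For 1 of the 14 all 4 K27M and not all 4 WT libraries were over the filter's minimum, and for 0 the reverse. Leaving out the 24 h replicate 2 pair gave 8 and 1 of 23 regulators, with a median of 0.14, and 6 and 1 of 13 for the others, with a median of 0.42. Hif1a and Epas1, the genes of the factors, and Vhl passed in neither model. Hif1a stood at 0.08 ± 0.09, Epas1, which encodes HIF-2 alpha, at −0.41 ± 0.15 (adjusted p = 0.501), and Vhl, whose product marks the factors for destruction, at 0.01 ± 0.10.

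Promoters of 5 of the genes that rose in the pair model are printed here because the core of the hypoxia response element, ACGTG or GCGTG, can be read in them. They are RefSeq sequences on GRCm38.p6, from 250 bases before to 50 after the start, 5′ to 3′ on the gene's strand. Capitals mark ACGTG and GCGTG, or CACGT and CACGC where the core lies on the other strand, and CACGTG holds the core on both strands at once.
Ddit4 (chr10:59951721-59952020, minus strand): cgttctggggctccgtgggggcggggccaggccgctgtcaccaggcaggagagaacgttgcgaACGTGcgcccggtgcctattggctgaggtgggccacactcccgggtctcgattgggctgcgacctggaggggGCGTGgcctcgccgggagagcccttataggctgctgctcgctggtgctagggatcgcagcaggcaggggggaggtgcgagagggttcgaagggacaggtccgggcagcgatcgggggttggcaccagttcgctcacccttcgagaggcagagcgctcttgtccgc
Egln3 (chr12:54203825-54204124, minus strand): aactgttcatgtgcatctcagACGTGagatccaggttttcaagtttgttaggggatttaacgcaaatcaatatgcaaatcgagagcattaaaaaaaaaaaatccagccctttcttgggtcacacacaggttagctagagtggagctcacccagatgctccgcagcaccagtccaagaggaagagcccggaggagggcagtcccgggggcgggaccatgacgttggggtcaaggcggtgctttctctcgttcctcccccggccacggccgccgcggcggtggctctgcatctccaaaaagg
Bnip3 (chr7:138909457-138909756, minus strand): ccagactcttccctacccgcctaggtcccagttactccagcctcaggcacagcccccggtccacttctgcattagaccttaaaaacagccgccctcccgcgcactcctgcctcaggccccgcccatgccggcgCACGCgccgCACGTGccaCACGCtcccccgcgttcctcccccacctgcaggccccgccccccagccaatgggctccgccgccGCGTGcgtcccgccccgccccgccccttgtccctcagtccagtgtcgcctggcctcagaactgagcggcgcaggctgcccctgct
P4ha1 (chr10:59323046-59323345, plus strand): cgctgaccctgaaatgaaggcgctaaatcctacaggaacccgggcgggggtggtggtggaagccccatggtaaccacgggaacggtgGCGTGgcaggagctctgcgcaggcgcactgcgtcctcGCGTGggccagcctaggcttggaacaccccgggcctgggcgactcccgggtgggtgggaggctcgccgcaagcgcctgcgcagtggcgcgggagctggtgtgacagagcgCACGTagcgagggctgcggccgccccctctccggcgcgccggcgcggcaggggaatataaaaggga
Pfkp (chr13:6648722-6649021, minus strand): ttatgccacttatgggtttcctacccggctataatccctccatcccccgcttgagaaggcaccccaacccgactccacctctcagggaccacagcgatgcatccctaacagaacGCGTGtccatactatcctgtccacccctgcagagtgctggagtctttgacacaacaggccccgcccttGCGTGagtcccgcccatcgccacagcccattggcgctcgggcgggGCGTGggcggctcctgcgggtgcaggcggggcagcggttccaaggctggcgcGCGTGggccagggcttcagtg

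Of the 16 genes in the hypoxia and glycolysis lists that rose in the pair model, 12 were in the promoter table, with 14 promoters, of which 10 (71.4%) held ACGTG or GCGTG on either strand. The share was 62.9% for the 10554 promoters of genes tested and 43.8% for all 32851 promoters of the same length. For ACGTG alone the shares were 50%, 25.8% and 19.6%. Named genes that rose in the pair model, a set that overlaps this one, had 42 promoters. Of these, 78.6% held either core and 47.6% held ACGTG, so the hypoxia and glycolysis promoters stood near the named genes that rose. A match is a run of letters, and no binding was measured in these libraries.

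Ndrg1, a stress-induced gene of the N-myc downstream regulated family (mm9 chr15:66760883-66801202), was at 16.4, 13.5, 12.6 and 19.6 CPM in WT and at 23.6, 24.4, 34.6 and 41.4 CPM in K27M. The groups did not overlap, and the higher K27M values were those of 72 h (0.97 ± 0.18, adjusted p = 0.26 and 0.00927 in the pair model). Bnip3, whose product directs the removal of mitochondria, was at 11, 16.7, 8.85 and 15.2 CPM in WT and at 19.4, 19.7, 26.2 and 24.1 CPM in K27M. All K27M values again lay above the WT values (0.82 ± 0.20, adjusted p = 0.0488 in the pair model). P4ha1, a subunit of the hydroxylase that matures collagen, was at 36.7 to 56.1 CPM in WT and at 51.1 to 79.6 CPM in K27M (0.54 ± 0.11, adjusted p = 0.0211 in the pair model), with 3 K27M libraries above all WT ones. Egln3, a prolyl hydroxylase that acts on the hypoxia-inducible factors, was at 5.43 to 8.59 CPM in WT and at 13.3 to 16.2 CPM in K27M (1.03 ± 0.17). Ddit4, the mTORC1 inhibitor also known as REDD1, was at 43.2, 34.2, 35.3 and 48.4 CPM in WT and at 86.3, 212, 85.4 and 101 CPM in K27M, so its highest value came from the 24 h replicate 2 library (1.50 ± 0.24).

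Among the secreted products, Vegfa, the angiogenic ligand, was at 19.4, 20.3, 19.8 and 30 CPM in WT and at 34.4, 69, 48.6 and 54.7 CPM in K27M, with no overlap (1.20 ± 0.16, adjusted p = 0.00435 in the pair model). Stc2, a secreted glycoprotein, was at 5.55, 5.18, 6.59 and 10.7 CPM in WT and at 10.2, 11.5, 11.1 and 22.2 CPM in K27M. It rose in the pair model (0.96 ± 0.20, adjusted p = 0.0169), with the lowest K27M value below the highest WT value. Ero1l, the oxidase that forms disulphide bonds in the endoplasmic reticulum, rose by less (0.53 ± 0.11, adjusted p = 0.0182). Loxl2, a secreted lysyl oxidase that crosslinks collagen and sits in no hypoxia list here (chr14:70008978-70095640), was low in WT, at 1.01, 1.39, 0.961 and 0.923 CPM, and at 3.73, 3.83, 2.49 and 2.52 CPM in K27M. The groups did not overlap (1.52 ± 0.25, adjusted p = 0.225 and 0.0212 in the pair model). All 4 K27M libraries and not all 4 WT libraries were over the filter's 1.245 CPM minimum, so Loxl2 was tested because of K27M.

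**Figure D2:**
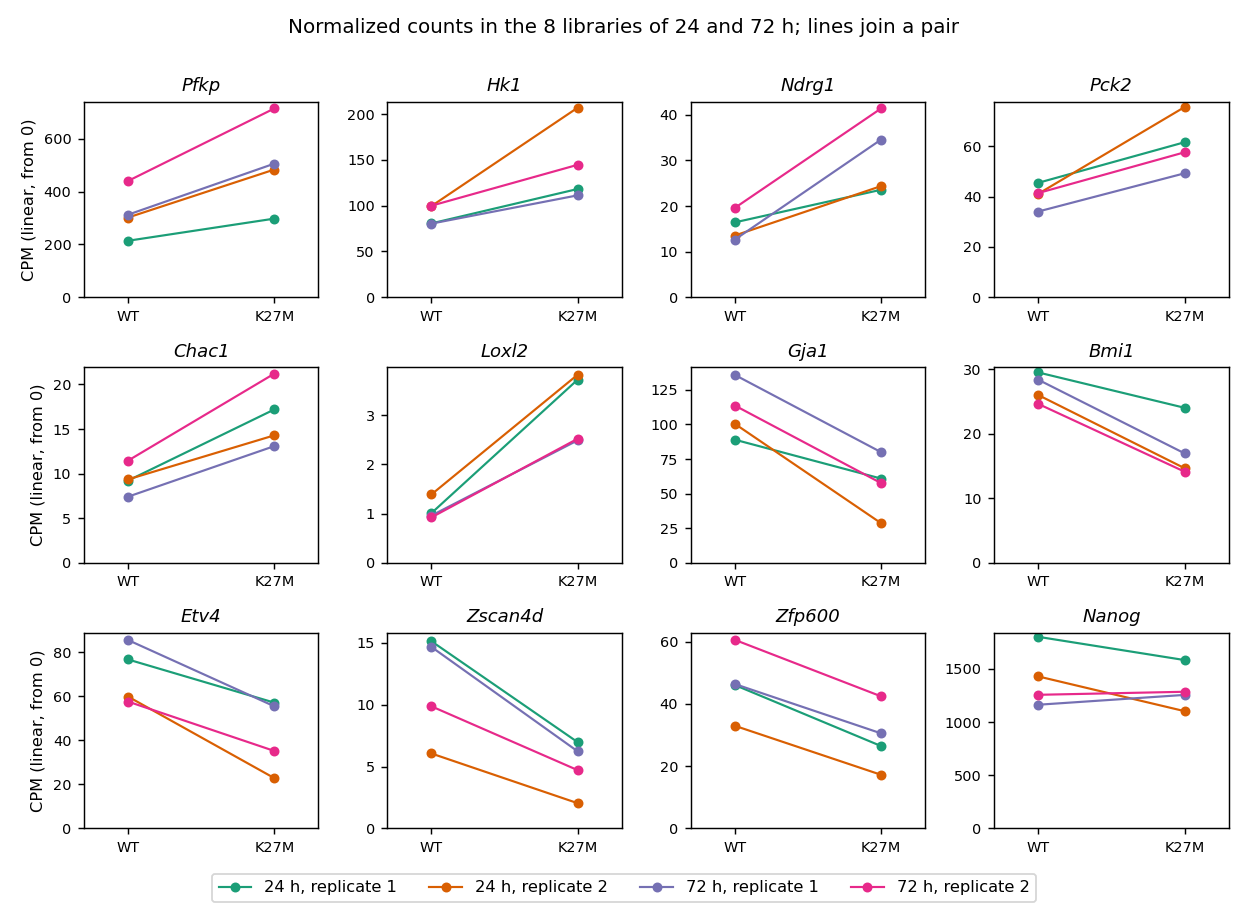
CPM of 12 genes in each of the 8 libraries, WT and K27M, with a line joining the WT and K27M library of each Dox time and replicate number. Hk1, Ndrg1 and Loxl2 lie higher in every K27M library than in any WT library, Gja1 and Bmi1 lie lower, and Nanog overlaps.

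The list of the integrated stress response had the most members at unadjusted p under 0.05. Of 34 tested, 20 were higher and 1 lower, with a median of 0.31, and 4 rose in the pair model, of which Stc2 is also a hypoxia gene. Without the 24 h replicate 2 pair 16 were higher and 0 lower, with a median of 0.25. Pck2, the mitochondrial phosphoenolpyruvate carboxykinase (chr14:56159103-56168854), was at 45.4, 41.1, 34 and 41.4 CPM in WT and at 61.6, 75.5, 49.2 and 57.6 CPM in K27M. The groups did not overlap (0.58 ± 0.12, adjusted p = 0.292 and 0.0212 in the pair model). Chac1, which breaks down glutathione, was at 9.21, 9.35, 7.41 and 11.4 CPM in WT and at 17.2, 14.3, 13.1 and 21.2 CPM in K27M. Here too every K27M value was the higher (0.82 ± 0.19, adjusted p = 0.0204 in the pair model). Nupr1, a small stress-induced chromatin protein, rose in the pair model with overlapping groups (0.59 ± 0.15, adjusted p = 0.0264).

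Members that did not pass were mostly on the higher side. Ddit3, the stress factor CHOP, stood at 5.43 to 11 CPM in WT and 11.3 to 21.1 CPM in K27M (0.85 ± 0.24, adjusted p = 0.0838 in the pair model). The serine synthesis genes Psat1 and Phgdh had 0.44 ± 0.15 and 0.32 ± 0.13, Asns (asparagine synthetase) had 0.31 ± 0.12, and the ATF4 target Trib3 had 0.46 ± 0.19. Atf4 itself, which is controlled mostly in translation, had 0.15 ± 0.13 (adjusted p = 0.733). Slc7a3, a transporter of basic amino acids, was the member on the lower side (−0.23). Aldh18a1, which makes proline from glutamate and was among the 12 ranked genes, was at 81, 104, 85.6 and 121 CPM in WT and 121, 182, 123 and 174 CPM in K27M (0.60 ± 0.10, adjusted p = 0.00927 in the pair model). The unfolded protein response, a different stress program of the endoplasmic reticulum, had 0 higher and 1 lower (Selk) of 22 tested, with a median of −0.01. Heat shock genes had 0 of 16 in either direction, oxidative stress and metal genes 0 of 12, and p53 targets 1 higher of 22 (Cdkn1a, 0.64 ± 0.27).

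**Figure D3:**
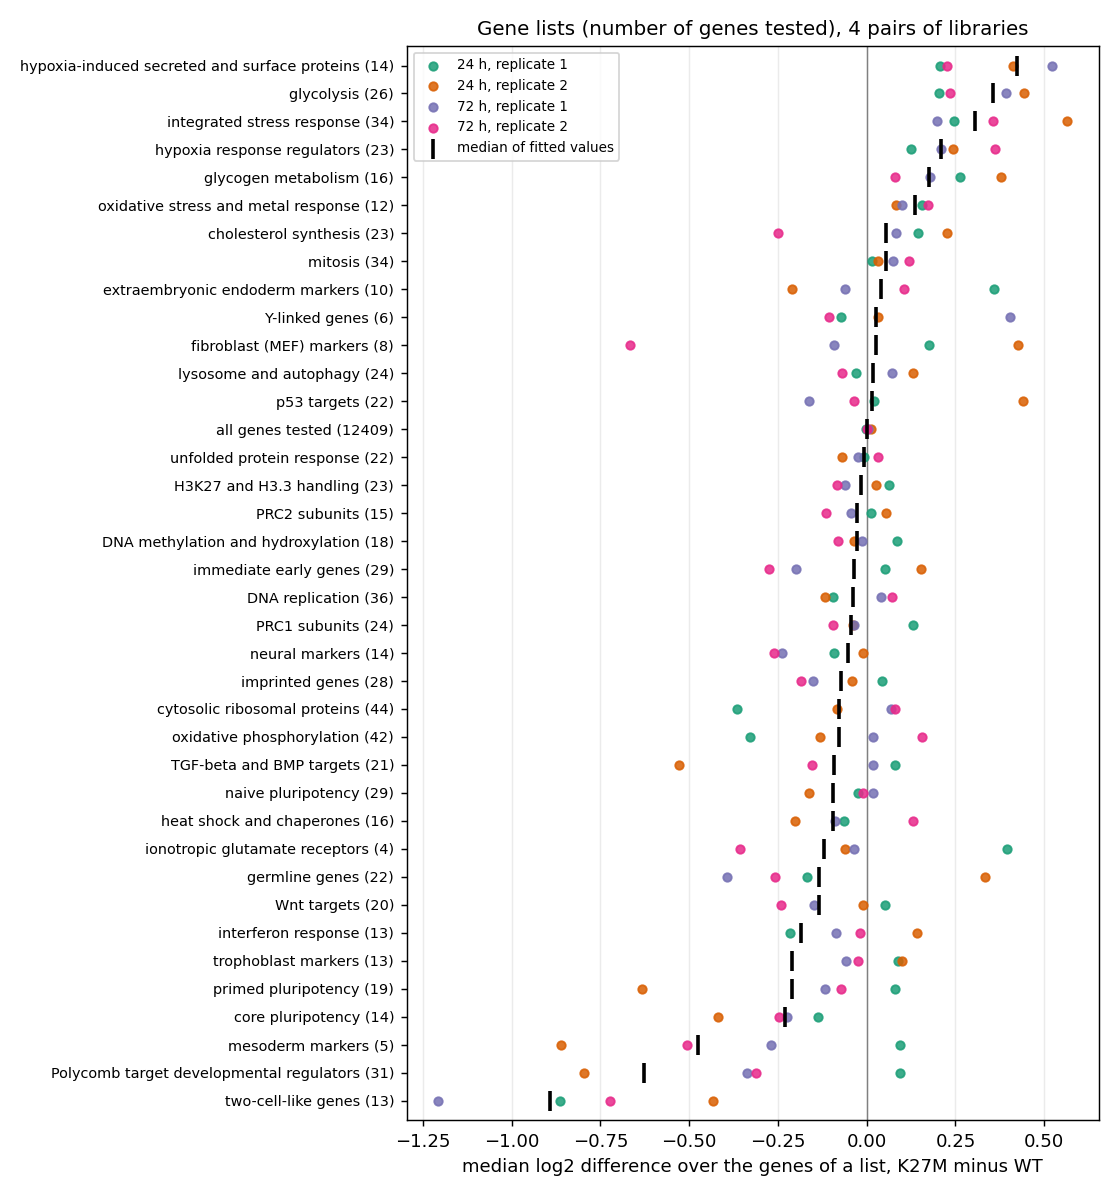
Median log2 fold change (K27M minus WT) of each gene list over its tested members, as points, with the medians of the 4 pairs beside it. Secreted hypoxia proteins stand at 0.42, glycolysis at 0.36 and the integrated stress response at 0.31, and the two-cell-like list is lowest at −0.89.

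On the lower side the immediate early list, which holds the targets of growth factor and ERK signalling, had 10 members lower and 2 higher of 29 tested at unadjusted p under 0.05, while its median was −0.04. For 3 of the 29, Ptgs2 among them, all 4 WT libraries and not all 4 K27M libraries were over the 1.245 CPM minimum, and for 0 the reverse, so the lower count leans on members that were tested because of WT. Ptgs2, Etv4 and Egr1 fell in the pair model and Ier3 rose. Ptgs2, the inducible prostaglandin synthase (chr1:151947254-151955140), was at 2.52, 2.78, 4.8 and 3.05 CPM in WT and at 1.2, 0.51, 1.4 and 0.673 CPM in K27M. All K27M values lay below the WT values (−1.78 ± 0.30, adjusted p = 0.231 and 0.0199 in the pair model). Etv4, an ETS factor downstream of FGF, was at 76.7, 59.9, 85.6 and 57.6 CPM in WT and at 57.1, 22.8, 55.5 and 35.2 CPM in K27M, again with no overlap (−0.77 ± 0.15, adjusted p = 0.0186 in the pair model). Egr1 ranged from 1.39 to 26.8 CPM within WT, low at 24 h and high at 72 h, and was lower in K27M in each pair (−1.33 ± 0.42, adjusted p = 0.0103 in the pair model). The FGF feedback genes Spry4, Dusp6 and Spry2 had −1.56 ± 0.44, −0.74 ± 0.25 and −0.48 ± 0.13, and Myc −0.79 ± 0.32, none of which passed. Spry4 was at 1.02 CPM in K27M 24 h replicate 2 and at 13.1 to 27.9 CPM in the other K27M libraries. Without that pair the list had 2 higher and 10 lower of 28 tested, with a median of −0.10.

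The lowest list median was that of the two-cell-like genes. Of 13 tested, 11 were lower at unadjusted p under 0.05 and 0 higher, with a median of −0.89, and Zscan4d, Pramel6 and Pramel7 fell in the pair model. Zscan4d, a DNA-binding protein of the two-cell embryo (chr7:11746992-11751497), was at 15.1, 6.07, 14.7 and 9.88 CPM in WT and at 6.97, 2.04, 6.23 and 4.71 CPM in K27M. Each K27M library was below its partner, though the groups overlapped (−1.21 ± 0.23, adjusted p = 0.276 and 0.00927 in the pair model). Zscan4, Pramel and Dub family members are near-identical copies that may share reads, which was not measured. The values of single members are therefore uncertain, and the members cannot be taken as independent. Without the 24 h replicate 2 pair 12 of 13 were lower, with a median of −0.98. For 2 of the 13 all 4 WT libraries and not all 4 K27M libraries were over the filter's minimum, and for 0 the reverse. Germline genes had 0 higher and 5 lower of 22, with a median of −0.13 (8 lower and −0.28 without that pair), and Tex19.1 (−0.55 ± 0.12) and Fkbp6 (−0.71 ± 0.18) fell in the pair model. Dnmt3l, the cofactor of the de novo DNA methyltransferases, also fell, at 321 to 428 CPM in WT and 145 to 302 CPM in K27M with no overlap (−0.60 ± 0.15, adjusted p = 0.0435 in the pair model). Its list of DNA methylation and hydroxylation genes had 0 higher and 2 lower of 18.

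Pluripotency genes showed no common shift in their best known members. Pou5f1 stood at −0.26 ± 0.13, Nanog at −0.10 ± 0.14, Sox2 at 0.00 ± 0.11 and Esrrb at 0.06 ± 0.13. Of 14 core genes, 0 were higher and 4 lower at unadjusted p under 0.05, with a median of −0.23. Naive genes had 5 higher and 6 lower of 29, with Dppa2 falling (−0.68 ± 0.19, adjusted p = 0.0199 in the pair model), and primed genes 3 higher and 2 lower of 19. Targets of TGF-beta and BMP had 0 higher and 6 lower of 21, with a median of −0.09, and without the 24 h replicate 2 pair 2 higher and 4 lower, with a median of 0.06. Among the 6 was Id3, a classic BMP target. Id3 was at 46.2, 54, 54.9 and 37.3 CPM in WT and at 28.1, 0.383, 31.8 and 16.8 CPM in K27M, so 1 library carried much of its difference (−1.57 ± 0.59, adjusted p = 0.123 in the pair model). Wnt targets had 0 higher and 3 lower of 20. Gja1, the gap junction protein connexin 43 (chr10:56097106-56110225), was at 89, 100, 136 and 114 CPM in WT and at 60.8, 28.6, 79.9 and 57.6 CPM in K27M. It fell in the pair model with no overlap (−1.01 ± 0.18, adjusted p = 0.00927), and Kit, the stem cell factor receptor, rose (0.58 ± 0.12, adjusted p = 0.0161).

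Polycomb genes were read because K27M acts on PRC2. Among 15 PRC2 subunits 1 was higher at unadjusted p under 0.05 (Ezh1, 0.37 ± 0.16) and 0 lower, and Ezh2 stood at 0.01 ± 0.11 and Suz12 at −0.03 ± 0.10. Among 24 PRC1 subunits 1 was higher and 3 lower. Bmi1, a ring-finger partner of the ubiquitin ligase in PRC1 (chr2:18598645-18608256), was at 29.5, 26, 28.4 and 24.7 CPM in WT and at 24, 14.7, 17 and 14.1 CPM in K27M. The K27M values all lay below the WT values (−0.66 ± 0.14, adjusted p = 0.292 and 0.0358 in the pair model). Genes that handle H3.3 or modify lysine 27 had 0 of 23 in either direction.

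Of 94 developmental regulators that Polycomb represses, 31 had enough counts to be tested, of which 2 were higher and 9 lower at unadjusted p under 0.05 and none passed in either model. Their median was −0.63, but the pair medians were 0.09, −0.80, −0.34 and −0.31. For 7 of the 31 all 4 WT libraries and not all 4 K27M libraries were over the minimum of 1.245 CPM set by the filter, and for 0 the reverse, so the choice of tested members leans to the lower side. With at least 10 counts in every library the median was −0.18, and without the 24 h replicate 2 pair it was −0.36, with 2 higher and 10 lower. Hoxd9 and Hoxd13 had −1.71 ± 0.43 and −1.18 ± 0.31 (adjusted p = 0.0526 and 0.0564 in the pair model), and Gata2 and Otx2 were the higher ones (0.98 ± 0.35 and 0.55 ± 0.24).

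The remaining lists had fewer members past the unadjusted threshold. Cytosolic ribosomal proteins had 0 of 44 members at unadjusted p under 0.05, DNA replication 0 of 36, mitosis 1 higher of 34, lysosome and autophagy 1 higher of 24, and cholesterol synthesis 1 lower of 23. Interferon response genes had 1 higher and 3 lower of 13, with Ddx58, the RNA sensor RIG-I, falling in the pair model (−0.82 ± 0.23, adjusted p = 0.0393). Imprinted genes had 1 higher and 2 lower of 28, and Y-linked genes 1 higher of 6. Of 4 glutamate receptor genes tested, Grin1 rose in the pair model (1.48 ± 0.21, adjusted p = 0.00927). For Grin1 all 4 K27M and not all 4 WT libraries were over the filter's minimum of 1.245 CPM. Among markers of other cells, fibroblast genes had 1 higher and 1 lower of 8, extraembryonic endoderm 2 and 1 of 10 (Lama1 rose, 0.51 ± 0.19), trophoblast 2 and 1 of 13 (Tcfap2c rose, 0.87 ± 0.17), neural 1 and 3 of 14 (Nefm fell, −1.05 ± 0.32) and mesoderm 0 and 1 of 5. Some genes passed the filter through WT, where all 4 WT and not all 4 K27M libraries were over its minimum. These were 3 mesoderm, 3 primed, 2 trophoblast and 2 Wnt genes, with 0 of these lists through K27M. The integrated stress response, PRC1, TGF-beta and BMP, fibroblast and neural lists had 1 such gene each and 0 through K27M. Imprinted genes had 1 through WT and 2 through K27M, glutamate receptors 1 each way and extraembryonic endoderm 0 and 1. Of all 12409 tested genes 466 passed through WT and 250 through K27M.

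Leaving out the 24 h replicate 2 pair changed further list counts, given here as higher and lower members at unadjusted p under 0.05. Neural markers had 1 and 6 of 14, interferon genes 1 and 5 of 15, p53 targets 1 and 3 of 22, and fibroblast markers 1 and 2 of 8. Naive genes had 5 and 4 of 29, primed genes 2 and 1 of 19, core genes 0 and 5 of 14, trophoblast markers 1 and 2 of 12 and extraembryonic endoderm markers 3 and 0 of 10. PRC1 subunits had 2 and 2 of 24, PRC2 subunits 0 and 0 of 15, oxidative phosphorylation 0 and 0 of 42, cholesterol synthesis 1 and 0 of 23, heat shock genes 0 and 1 of 16, DNA replication 1 and 0 of 36, imprinted genes 2 and 2 of 27 and glutamate receptors 1 and 1 of 4.

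One stretch of chromosome 4 held 11 of the 55 genes that fell in the pair model. It was chosen after its values were seen, so it is described without a test. Between Gm13230 and Zfp933 (mm9 chr4:145036643-147222475) lie 34 tested genes, most of them KRAB-type zinc finger genes, a family of repressors of transposable elements. The members here are near-identical and may share reads, which was not measured. In 32 of the 34 the fold change was below 0, with a median of −0.46 and a range from −0.88 to 0.48, and 12 were lower and 0 higher at unadjusted p under 0.05. The pair medians were −0.58, −0.82, −0.50 and −0.19. Zfp600 (chr4:146124225-146166156) was at 46.1, 33, 46.4 and 60.6 CPM in WT and at 26.5, 17.2, 30.5 and 42.4 CPM in K27M, lower in each pair with 3 K27M libraries below all WT ones (−0.70 ± 0.19, adjusted p = 0.0114 in the pair model). The 15 tested genes before the stretch had a median of −0.20 and the 15 after it 0.11, and 264 Zfp-named genes of other chromosomes had −0.06. At unadjusted p under 0.05, 4 were lower and 2 higher before the stretch, and 0 in either direction after it. Of the 264, 165 were below 0, and 20 were lower and 4 higher at that level, beside 4.74% and 4.33% of all genes tested. In the libraries of 4 and 8 h, 33 genes of the stretch were tested, with a median of −0.45, and 19 were lower and 0 higher at unadjusted p under 0.05. Whole-chromosome medians of the 18 autosomes tested, chromosome 4 included, ran from −0.02 to 0.02.

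**Figure D4:**
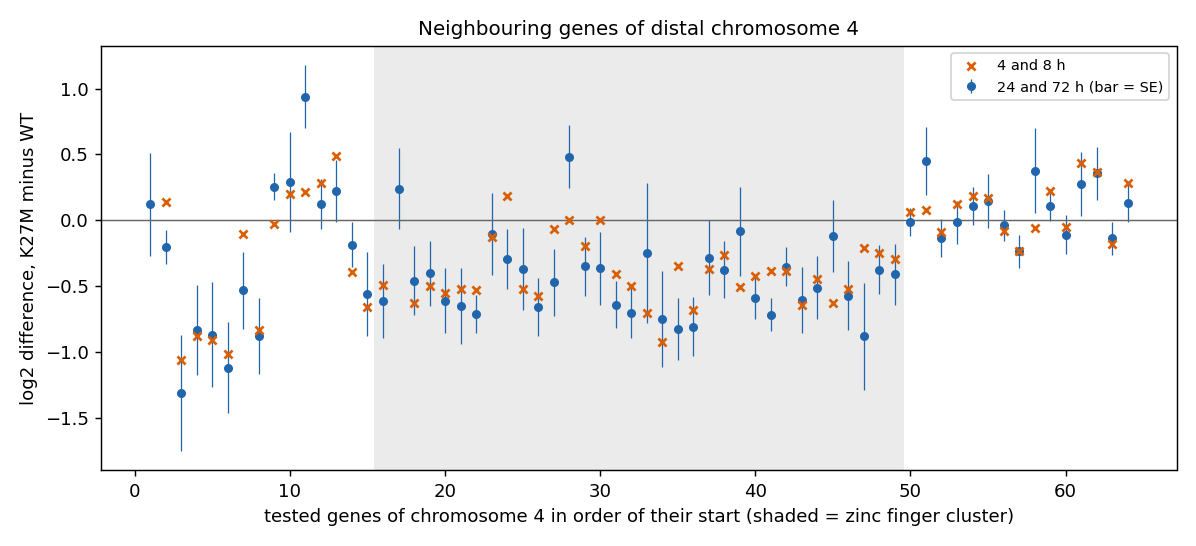
Log2 fold change (K27M minus WT, vertical) of the tested genes in and around the chromosome 4 zinc finger stretch (shaded), in order along the chromosome, at 24 and 72 h (points with standard error) and at 4 and 8 h (crosses). The 34 genes of the stretch have a median of −0.46, and the 15 genes on each side have medians of −0.20 and 0.11.

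The 24 and 72 h differences were compared by an interaction term. No gene passed the adjusted threshold (edgeR quasi-likelihood test), 190 had an unadjusted p under 0.05 (93 with a higher difference at 72 h than at 24 h, 0.749%, and 97 with a lower one, 0.782%), and none of the 24 ranked genes was among them. Read alone, 24 h and 72 h each gave 0 genes past the adjusted threshold, with 920 and 395 at unadjusted p under 0.05. At 24 h 3.29% of genes were higher and 4.13% lower at that level, and at 72 h 1.27% and 1.91%. P2rx7, an ATP-gated channel that fell in the pair model (adjusted p = 0.0439), was at 3.66 and 4.93 CPM in WT at 24 h and at 21.1 and 15.2 CPM at 72 h, while K27M stayed at 3.49, 3.06, 4.67 and 2.69 CPM.

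The libraries of 4 and 8 h share none with those of 24 and 72 h, although they come from the same lines, so a difference between clones would return in them. By itself the early comparison gave 0 of 12846 genes past the adjusted threshold by edgeR and 1784 at unadjusted p under 0.05, 972 higher (7.57%) and 812 lower (6.32%). Of the 537 genes higher late at unadjusted p under 0.05, 521 were tested early, 502 of them (96.4%) were higher there too, and 258 (49.5%) had an early p under 0.05. Of the 588 lower genes, 583 were tested, 551 (94.5%) were lower early and 267 (45.8%) had p under 0.05. None in either set had an early p under 0.05 in the opposite direction. The share of all tested genes with the same sign late and early is not given here, so these shares have no baseline. Median log2 fold changes were 0.41 late and 0.30 early for the higher genes, and −0.54 and −0.38 for the lower ones. All 24 ranked genes had the same sign early, 10 of the higher and 9 of the lower ones at p under 0.05. Nid1 was among the exceptions, with 0.10 early and 0.47 late. Of 12379 genes, 0 differed between the late and the early difference past the adjusted threshold in edgeR, and 122 did at unadjusted p under 0.05 (44 higher late, 0.355%, and 78 lower, 0.63%).

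**Figure D5:**
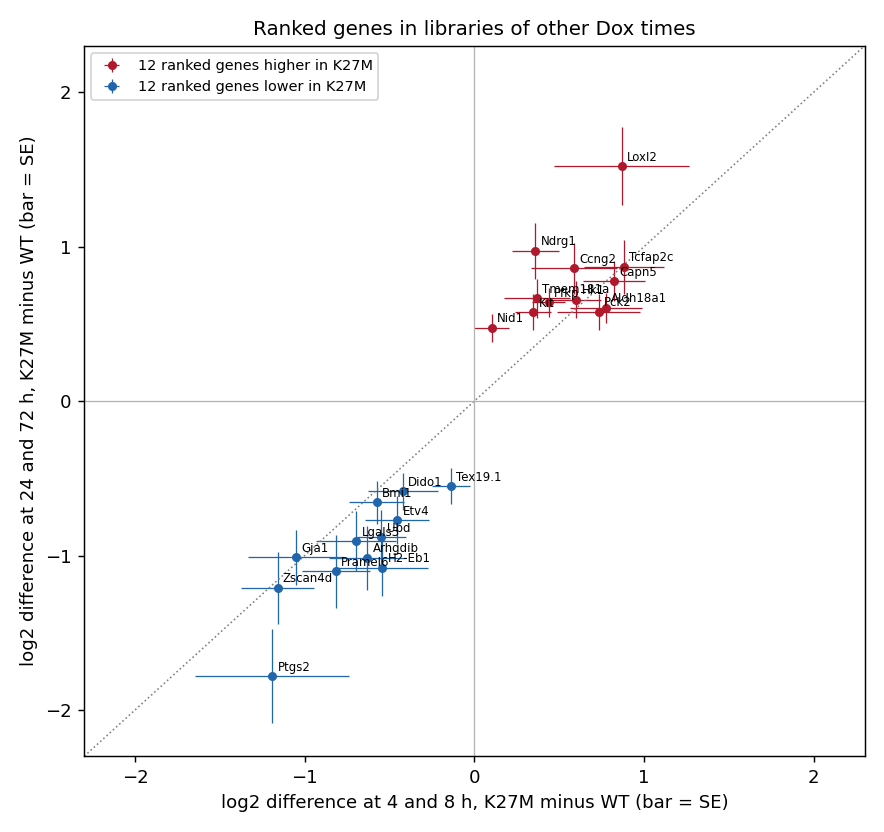
Log2 fold change (K27M minus WT) at 4 and 8 h (horizontal) against that at 24 and 72 h (vertical) for the 24 ranked genes, with standard errors and a dotted line of equal values. All 24 lie in the quadrants where both differences have the same sign.

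K27L cells carry the other lysine 27 mutant, and WT cells given GSK343, an inhibitor of the PRC2 enzyme EZH2, express no mutant histone. Both were compared with the same 4 WT libraries, so their values are set side by side with no count of agreement. K27L 72 h replicate 2 held 68378 counts, and the K27L line had a median of −4.03 for the Y-linked genes. The 12 higher ranked genes had medians of 0.66 in K27M, 0.36 in K27L and −0.12 with GSK343, and the 12 lower ones −0.96, −1.18 and 0.15. List medians for K27L and GSK343 were 0.24 and −0.0001 for glycolysis, 0.05 and −0.16 for the integrated stress response, 0.29 and 0.07 for the secreted hypoxia proteins, −1.79 and −0.70 for the two-cell-like genes, and 0.05 and −0.26 for the chromosome 4 stretch. In the direct contrast of K27M with K27L 453 of 12826 genes passed the adjusted threshold (257 higher, 2%, and 196 lower, 1.53%), 221 of them over 2-fold (1.72%), and 1 of the 24 ranked genes did, Lgals3, the lectin galectin-3 (adjusted p = 0.042). Against GSK343 4 genes passed, 1 higher (0.0078%) and 3 lower (0.0234%), of which 3 were over 2-fold (0.0234%). Ptgs2 (−2.27 ± 0.30, adjusted p = 0.00524), Bmi1 (−0.96 ± 0.16, adjusted p = 0.0303) and P2rx7 (−2.23 ± 0.36, adjusted p = 0.0303) were lower in K27M, and Vldlr, a lipoprotein receptor, was higher (1.73 ± 0.30, adjusted p = 0.0466). With replicate as a block the number was 26, and without K27L 72 h replicate 2, which enters the shared spread, it was 1.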

How the data were processed

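The authors aligned the reads with STAR 2.7.1 to mm9, per the labels and the study's methods, and deposited raw read counts per gene. The counter, and whether QuantSeq or KAPA kits made a given library, are not given in the sources used here. Of 55471 gene identifiers, 32589 were matched to the mm9 annotation and the others kept under their identifiers. Of the counts, 5.62% lay on chromosome 8 genes and were left out. The deposited counts of the 8 libraries were normalised by TMM, filtered with filterByExpr (minimum count 10) and tested with edgeR 4.0.16 in R 4.3.3 (quasi-likelihood test, Benjamini-Hochberg adjustment, called at adjusted p under 0.05 and over 2-fold). Dox time and replicate number entered the model. The pair model took each WT and K27M library of the same time and number as a block: both times gave a positive correlation between partners, and the study repeated its experiments weeks apart. CPM are TMM-scaled. DESeq2 1.42.0 was an alternative. Both models were run on counts simulated without a pair effect, and each found 40% of 1.5-fold and 78% of 2-fold changes at adjusted p under 0.05. Such counts cannot show which model suits these libraries. Genes named are the H3.3 genes, called genes, the ranked genes, up to 4 members per list, and the genes the study labels as a baseline. Ranked genes are the 12 of lowest p in each direction with 4 concordant pairs. Genes that the study labels, predicted symbols and genes without a symbol were not ranked. Others were named after their values were seen. Members and lists were chosen with earlier results of these data known. Nothing ties the samples to separate cultures beyond those repeats, so p-values measure the spread between these samples, which may be in part technical. ChIP-seq and the human data were not used here.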

Additional observations from a re-analysis of the deposited data

Results flagged for a closer look

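Each named gene was looked at for a library far from the other 3 of its line, by the gap to the nearest library over the range (Dixon's test at the 95% level). Of 446 groups of 4 libraries 26 passed, where chance passes about 1 in 20, and 11 of the 26 were at K27M 24 h replicate 2, while 0 were at WT 24 h replicate 2. What set that library apart was not tested.

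In K27M 24 h replicate 2 the high values, each against the nearest K27M library, were 212 CPM for Ddit4 (101), 33.8 for Sirpa (22.5), 1780 for Aldoa (1470), 8.42 for Pygl (2.04), 8.17 for Gata2 (3.2), 11.6 for Pdgfrb (5.41), 26.2 for Gabarapl1 (20.7) and 34.6 for the p53 target Bbc3 (17). The low values there were 9.7 CPM for Gm13212 (13.3), 4.08 for Bmp4 (12.1) and 5.1 for Myc (22.6). In K27M 24 h replicate 1 the far values were 28.6 CPM for Pramel6 (8.1), 3.49 for the Polycomb reader Cbx8 (1.09), 52.8 for Ndufs3 (38.4) and 131 for Manf (95). K27M 72 h replicate 2 was far for Stc2, at 22.2 CPM (11.5), and for Gpnmb, at 3.2 CPM (9.66), and K27M 72 h replicate 1 for Trib3, at 25.9 CPM (35).

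Among the WT libraries, 24 h replicate 1 was far for Tbc1d1 at 73.6 CPM (88.3), Cpt1a at 107 CPM (142), Cdx2 at 3.53 CPM (1.92), Bmp4 at 12 CPM (20.7), Epas1 at 41.8 CPM (62.9) and Col1a1 at 5.55 CPM (1.51). WT 72 h replicate 2 was far for Vegfa at 30 CPM (20.3) and Uty at 59.8 CPM (43.4).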

How the results depend on the processing

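The number of genes called (1) was 0 with no replicate block, 35 with the replicate block by pair, 23 with DESeq2, 86 with no filter on low counts and 0 with at least 10 counts in every library. It was 17 without the 24 h replicate 2 pair, an alternative chosen after seeing the data. The number past the adjusted threshold (1) was 0, 114, 59, 241, 0 and 40 in that order, and 2 in a fit of all 16 WT and K27M libraries with a replicate block. Leaving out 1 library gave 0 to 50 calls and 0 to 137 genes past the threshold, with 50 and 137 without K27M 72 h replicate 2 and 0 in the other 7. The number at unadjusted p under 0.05 (1125) was 1920 with the pair block, 1893 with no filter and 503 to 2674 with 1 library left out. The interaction count (190) was 111 with no replicate block and 760 with no filter. The early count (1784) was 463 with no replicate block and 875 to 2282 with 1 library left out, the lowest being without K27M 8 h replicate 2. The late minus early count (122) was 57 with no replicate block. Against GSK343, 4 genes became 26 with a replicate block and 1 without K27L 72 h replicate 2, and against K27L 453 became 438 and 477. Why these counts move was not tested. RLE and upper quartile scaling and keeping chromosome 8 left the calls at 1.

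A2m had adjusted p of 0.267 with no replicate block and 0.0569 with at least 10 counts in every library, and its log2 fold change ran from 1.06 to 1.21. Of 223 named genes 13, and of 37 list medians 24, changed sign under any of 18 alternatives. The lists of glycolysis, glycogen, hypoxia (both), integrated stress response and two-cell-like genes were not among the 24. Nor were those of core and primed pluripotency, germline, interferon response, mitosis, oxidative stress and metal response, and Polycomb targets. Of the list medians that moved by more than the spread of the pairs, Polycomb targets had −0.18 and mesoderm markers 0.42 with at least 10 counts in every library. Depth of 6680813 to 14894977 counts leaves genes near 1 CPM, such as Loxl2, Ptgs2 and many developmental regulators, with about 10 counts a library. With 8 libraries a model with replicate and time leaves few degrees of freedom, so a gene that missed the threshold was not shown to be equal in both lines.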

Other observations

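Other genes that passed the adjusted threshold in the pair model belong to none of the lists and were named after their values were seen. Extracellular matrix and surface genes were among the higher ones: Fbln1 (fibulin-1, 0.60 ± 0.14, adjusted p = 0.0136 by edgeR), Gpc3 (glypican-3, 0.74 ± 0.16, adjusted p = 0.023), Ptgfrn (0.45 ± 0.10, adjusted p = 0.0212) and Mfge8 (0.48 ± 0.13, adjusted p = 0.0323). Padi2, which turns arginine into citrulline, was at 6.31, 13, 7.68 and 10.6 CPM in WT and at 11.4, 42.4, 13.9 and 19.4 CPM in K27M, and its neighbour Padi4 at 8.71 to 13.5 CPM in WT and 13.3 to 22.5 CPM in K27M. Both were higher in each of the 4 pairs. Elf3, an epithelial ETS factor, was at 374 CPM in K27M 24 h replicate 2 and at 88.7 to 153 CPM in the other K27M libraries, against 60.4 to 109 CPM in WT.

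On the lower side were the axon guidance gene Ntn1 (−0.75 ± 0.19, adjusted p = 0.0462 in edgeR's pair model), the ligand gene Wnt5b (−1.03 ± 0.27, adjusted p = 0.0444), the interferon-induced GTPase gene Irgm1 (−1.66 ± 0.41, adjusted p = 0.0395) and Setd1b, an H3 lysine 4 methyltransferase gene (−0.99 ± 0.23, adjusted p = 0.026). Irgm1 was at 3.03, 3.03, 3.84 and 4.43 CPM in WT and at 1.92, 0.51, 0.467 and 1.51 CPM in K27M, with no overlap. All 4 WT and not all 4 K27M libraries were over the filter's minimum of 1.245 CPM, so Irgm1 was tested because of WT. Of the 59 higher genes of the pair model 58 were tested at 4 and 8 h, all 58 were higher there and 52 had an early p under 0.05. Of the 55 lower genes all were tested early, all were lower and 44 had p under 0.05. These early libraries come from the same lines, so a clone difference and an effect of the histone cannot be told apart in them either. No share over all tested genes stands beside these counts.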
